A study of Mus musculus with 8 samples.

Results

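Matured osteoblasts and osteocytes of the petrous temporal bone (PTB) were taken as the nuclei that the authors' bone annotation places in the type "Matured osteoblasts/osteocyte", matched by library and barcode to the deposited counts. There were 900 such nuclei among 31076 annotated PTB nuclei (2.90%) in 15 cell types, and among 79313 annotated nuclei of the PTB and of the paraflocculus/flocculus together. The 15 types are connective tissue, cartilage and bone cells with osteoclasts. Other bone nuclei that the paper kept, such as immune cells and neurons, are not among them. The type was not compared with those nuclei. The study compared wild-type (WT) mice with Tbx1+/- littermates at postnatal day 5.5 by single-nucleus RNA sequencing, to ask what the loss of one copy of the transcription factor gene Tbx1 does to cell types around the cerebellar paraflocculus. The mice were backcrossed to C57BL/6J, the mutation is carried by the whole animal and not by one lineage, and each library pooled nuclei from 5 mice. The paper used both sexes, and the sexes in each pool are not given. There were 2 WT and 2 Tbx1+/- PTB libraries, numbered replicate 1 and 2 within each genotype. The whole procedure was run again on another set of mice, with a library of each genotype in each run, and the replicate numbers were read as these 2 runs, an inference since the titles do not name them. All bones were frozen and pulverized before nuclei were released, so the values are of nuclear RNA. Values of the 4 libraries are given throughout in the order WT replicate 1, Tbx1+/- replicate 1, WT replicate 2 and Tbx1+/- replicate 2. The type held 256, 287, 146 and 211 nuclei in these libraries.

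Osteoblasts lay down the collagenous matrix of bone, and some of them are buried in it and become osteocytes, cells with long processes that run through the mineral. This step is known for a switch from making matrix to controlling its mineral and its remodelling: osteocytes make phosphate-regulating proteins such as DMP1 and PHEX, and the secreted Wnt inhibitors sclerostin (Sost) and DKK1, which restrain further bone formation. The petrous bone houses the inner ear and forms the fossa that encloses the paraflocculus, and it ossifies from a cartilage model.

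The type was read from 4488441 unique molecular identifiers (UMIs), with 795223 to 1295913 per library, and its nuclei held a median of 4109, 4177, 5372.5 and 5313 UMIs. No barcode of the type occurred in more than 1 library. The replicates differed. Nuclei of this type held a median of 1.39% and 1.06% mitochondrial UMIs in replicate 1, against 0.536% and 0.680% in replicate 2. The WT library of replicate 1 was highest, also in osteoblasts, at 1.52% against 0.591% to 1.02% in the others. Median UMIs were lower in both libraries of replicate 1. Levels are given as CPM, the UMIs of a gene per 1000000 UMIs summed over the nuclei of a type in a library, and were not corrected for free RNA. Gene positions are those of GRCm38. Comparisons of the type with other types are descriptions without a test, since the types were made by clustering the same nuclei.

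The markers of the label were highest in this type, which is a check of the annotation and no independent finding, since the authors named the types from markers in the same nuclei. Dmp1 (ENSMUSG00000029307, chromosome 5, 104202613 to 104214102), which encodes a matrix protein that nucleates mineral and restrains the phosphate hormone FGF23, was at 2516, 1788, 1295 and 1445 CPM. Osteoblasts held 228 ± 49.5 CPM of Dmp1 (mean ± SD, n = 4 libraries) and the hypertrophic chondrocyte/osteoblast class 243 CPM, so that the type exceeded every other type by at least 6.54 times in each library. The type did not overlap with any other type for this gene, although the WT library of replicate 1 was well above the others within the type.

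Phex (chromosome X, 157162075 to 157415312), the membrane endopeptidase whose loss causes X-linked phosphate wasting, was at 5558, 5932, 6039 and 5738 CPM. This was 3.45 to 3.83 times the level of osteoblasts, which were next. The 4 libraries lay close together, at 5817 ± 213 CPM (SD, n = 4).

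Ptprz1 (chromosome 6, 22875502 to 23052916), a receptor-type tyrosine phosphatase best known from glia, was at 3094, 3449, 3946 and 3552 CPM, 11.9 to 14.8 times the level of osteoblasts. Sost (chromosome 11, 101962458 to 101967015), the sclerostin gene, was at 92.4, 62.5, 44.0 and 66.3 CPM, against a mean of 6.92 CPM in osteoblasts and 5.22 CPM in the hypertrophic class. Both genes separated the type from every other annotated type in every library.

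**Figure D1:**
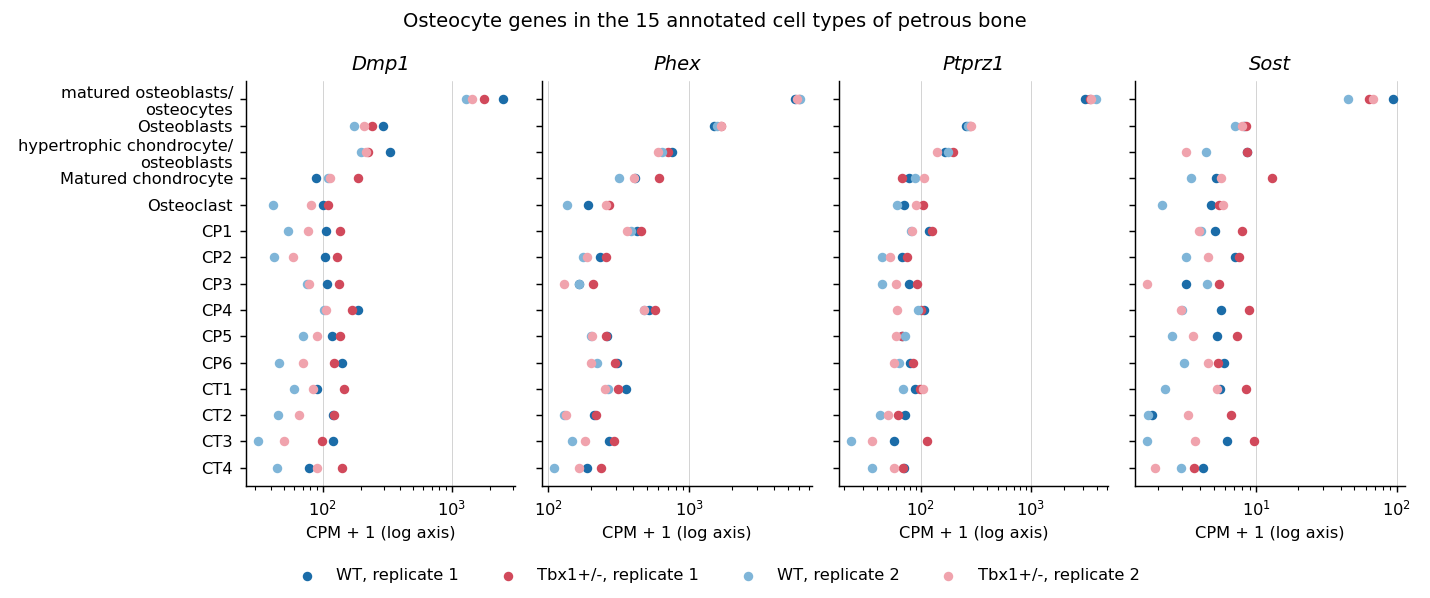
Levels of Dmp1, Phex, Ptprz1 and Sost (CPM + 1, log axis) in the 15 annotated PTB cell types (rows). Each point is 1 library, coloured by genotype and replicate number. In each panel the top row, the matured osteoblasts/osteocytes, lies to the right of all other rows, for example at 1295 to 2516 CPM for Dmp1.

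Of the 15 genes of an osteocyte list, 12 were above osteoblasts in all 4 libraries, Kcnk2 was below in all 4, and Fgf23 and Tnfsf11 were above in some libraries and below in others. The last 3 did not reach 20 CPM in every library. Over the 5996 genes that did, the median log2 ratio to osteoblasts was -0.06, and 21.3% were above osteoblasts in all 4 libraries and 31.5% below in all 4. The counts for the other lists cover genes that passed this limit, which is set on the type itself and drops genes low in it, so they describe the genes counted and not the whole lists. The lists also share genes. Sost, Dkk1, Irx5 and Cd44 of the osteocyte list, for example, are counted again in later lists. The osteocyte list was summed at 12700 to 13410 CPM in the type, 2435 to 2618 CPM in osteoblasts and 1482 to 1849 CPM in the hypertrophic class. Besides the 4 genes above, Mepe (a phosphoglycoprotein of mineralized matrix), Pdpn (podoplanin, needed for the growth of osteocyte processes), Dkk1, Irx5 (a homeobox factor), Ackr3 (an atypical chemokine receptor) and Fam20c (the kinase that phosphorylates secreted matrix proteins) were highest in this type. Pdpn was at 229, 178, 191 and 173 CPM, 4.62 to 7.06 times osteoblasts. Mepe varied most, at 349, 122, 74.2 and 220 CPM, and its ratio to osteoblasts ran from 1.28 to 3.86.

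The list also held genes that were low. Fgf23, the phosphate hormone of mature osteocytes, was at 0.84, 1.54, 0 and 2.49 CPM, which is at most 3 UMIs per library. Tnfsf11, the gene of the osteoclast-inducing cytokine RANKL, was at 3.09 to 7.46 CPM, below its mean of 61.8 CPM in the hypertrophic class. Kcnk2, a mechanosensitive potassium channel, was at 4.63 to 11.3 CPM against 325 CPM in CP6, one of the numbered CP types of the annotation. Fgf23 was thus near the limit of 0.668 CPM that a count of 0 over all 4 libraries would allow.

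A UMI of Dmp1 was found in 207 of 256, 238 of 287, 89 of 146 and 149 of 211 nuclei of the type. With each nucleus thinned to 2000 UMIs, which left out 14, 16, 3 and 4 shallower nuclei, the share was 69.8%, 69.4%, 51.8% and 55.1%. In osteoblasts it was 17.3% to 29.1%, and in osteoclasts, which should not make Dmp1, it was 6.43% to 17.9%. The unthinned shares were 61.0% to 82.9% in the type, 32.9% to 48.9% in osteoblasts and 20.0% to 43.5% in osteoclasts. Phex was found in 95.8% to 99.0% of the thinned nuclei of the type, against 74.2% to 79.8% in osteoblasts and 12.9% to 30.9% in osteoclasts.

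Most nuclei of the type held Phex, with or without Dmp1. Both Dmp1 and Phex were found in 68.6%, 68.3%, 49.0% and 55.1% of the thinned nuclei, and Phex without Dmp1 in 30.2%, 30.3%, 46.9% and 44.0%. Neither was found in 0% to 1.40%. Other genes of the list were also found in part of the thinned nuclei, Irx5 in 52.0% to 64.7%, Pdpn in 25.6% to 33.6%, Dkk1 in 17.5% to 33.5% and Mepe in 10.5% to 24.0%. Sost was found in 34, 24, 15 and 23 thinned nuclei (8.86% to 14.1%), of which 22, 12, 9 and 10 also held Dmp1. In osteoclasts the thinned share with Sost was 0.643% to 1.45%. The median depths of osteoblasts and osteoclasts were 4339.5 to 5356 and 4963 to 7105 UMIs.

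Genes that led the type were ranked by the lowest of the 4 within-library ratios to the highest other annotated type, among the 5996 genes with at least 20 CPM in every library. Of these, 358 were highest in this type in every library, and 61 were at least 2 times the next type in every library. Among the first 25 were genes of the membrane or synapse (Pacsin1, Ptprz1, Grik2, Magi1, Epb41l3), an activator of a small GTPase (Dock9), a sarcomeric protein (Myom3), enzymes and a transporter (Art1, Art5, Nnmt, Zdhhc14, Spns2), secreted signals (Sost, Dkk1, Bmp8a, Fgf1) and the mineral genes Dmp1 and Phex. The others were Afap1l2, Ripor3, Coro6, Ift57, Ccdc194, 9330154J02Rik and Gm12519. These roles are background and were not tested for enrichment.

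Pacsin1, an endocytic protein that binds membranes and is best known from neurons, led the ranking. It was at 165, 174, 170 and 153 CPM against a mean of 8.78 CPM in osteoblasts, the next type, and was at least 12.1 times higher in each library. Art1, an ADP-ribosyltransferase anchored to the cell surface, was at 47.9, 62.5, 74.2 and 52.2 CPM against 3.36 CPM in osteoblasts.

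Dock9, an activator of the small GTPase CDC42, was at 1169, 1421, 1605 and 1388 CPM, with 134 CPM in osteoblasts and 177 CPM in CT1, one of the numbered CT types. Grik2, a kainate-type glutamate receptor subunit, was at 244, 289, 347 and 260 CPM against 22.4 CPM in osteoblasts. Spns2, the exporter of sphingosine-1-phosphate, was at 293 to 438 CPM against 108 CPM in osteoblasts, and it had the smallest ratio of the 25, at least 2.96. For 15 of the 25 genes, osteoblasts were the next type by their mean. All 25 stayed highest in each library when means over nuclei replaced sums, when only nuclei with 2000 or more genes were kept and when the nuclei with most UMIs were left out. Since they had been picked for ratios of at least 2.96 in these nuclei, this was largely given. The ranking was not redone, so its stability was not tested.

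**Figure D2:**
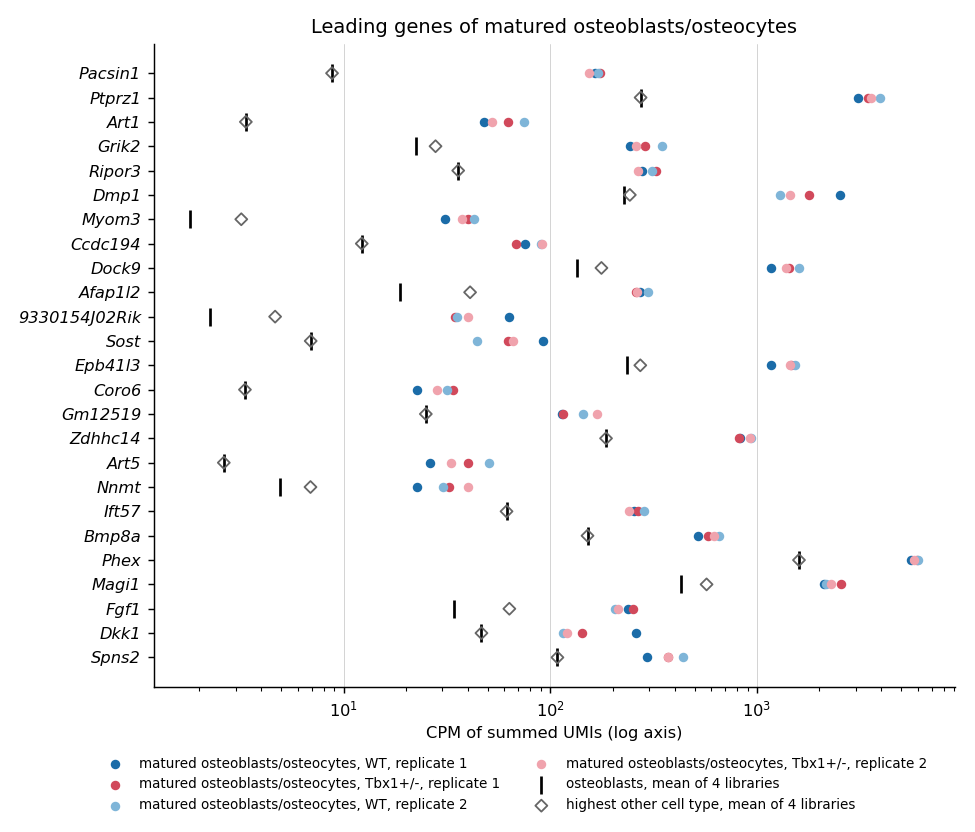
Levels (CPM, log axis) of the 25 leading genes (rows, from the largest lowest ratio down). Coloured points are the 4 libraries of matured osteoblasts/osteocytes, bars mark the osteoblast mean and open diamonds the mean of the highest other type. For every gene the 4 points lie to the right of both marks, as for Pacsin1 at 153 to 174 CPM against 8.78 CPM.

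Promoter sequences were searched because the 25 genes are high together. RefSeq starts (GRCm38.p6) were found for 21 of the 25, all but 9330154J02Rik, Zdhhc14, Nnmt and Fgf1, and the 250 bases before the first start in the RefSeq table were read on the gene's strand. The letters TGTGGT, the core bound by RUNX factors such as RUNX2, occurred on either strand in 5 of the 21 promoters and in 14.2% of the promoters of 27025 genes. The letters TAATTA, a homeobox core, occurred in 0 of 21 (4.90% of all), and TGANTCA, an AP-1 core, in 0 of 21 (6.87% of all). A match is a run of letters, not a measured site. The 5 stretches with the RUNX core are Pacsin1 at chr17:27684989-27685238 (plus strand), Myom3 at chr4:135759465-135759714 (plus strand), Magi1 at chr6:93912964-93913213 (minus strand), Dkk1 at chr19:30549497-30549746 (minus strand) and Spns2 at chr11:72475028-72475277 (minus strand). The Pacsin1, Magi1 and Spns2 stretches lie before starts inside the gene, 29730, 370954 and 14877 bases from its outermost annotated start, and the Dkk1 stretch overlaps the annotated gene. They are shown 5′ to 3′ up to the base before the start, with TGTGGT or its reverse complement ACCACA in capitals:
Pacsin1: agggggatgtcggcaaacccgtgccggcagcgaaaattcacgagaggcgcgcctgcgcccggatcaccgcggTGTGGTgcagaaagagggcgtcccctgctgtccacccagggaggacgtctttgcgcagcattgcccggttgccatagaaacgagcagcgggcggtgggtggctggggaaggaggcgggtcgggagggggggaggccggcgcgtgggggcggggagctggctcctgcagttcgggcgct
Myom3: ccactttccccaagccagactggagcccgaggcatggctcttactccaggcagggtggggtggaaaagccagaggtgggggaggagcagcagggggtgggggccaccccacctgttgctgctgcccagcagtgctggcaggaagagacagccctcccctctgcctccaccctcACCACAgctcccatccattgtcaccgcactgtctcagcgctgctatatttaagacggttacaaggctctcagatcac
Magi1: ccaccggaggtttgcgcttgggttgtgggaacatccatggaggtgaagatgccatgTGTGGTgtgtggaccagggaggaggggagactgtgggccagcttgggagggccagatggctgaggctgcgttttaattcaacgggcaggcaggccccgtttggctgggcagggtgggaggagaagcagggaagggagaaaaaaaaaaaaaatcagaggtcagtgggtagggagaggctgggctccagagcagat
Dkk1: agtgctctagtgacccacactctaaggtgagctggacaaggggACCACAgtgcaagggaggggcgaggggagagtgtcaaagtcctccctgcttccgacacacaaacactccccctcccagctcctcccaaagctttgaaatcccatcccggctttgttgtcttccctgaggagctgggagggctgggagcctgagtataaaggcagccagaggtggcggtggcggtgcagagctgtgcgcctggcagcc
Spns2: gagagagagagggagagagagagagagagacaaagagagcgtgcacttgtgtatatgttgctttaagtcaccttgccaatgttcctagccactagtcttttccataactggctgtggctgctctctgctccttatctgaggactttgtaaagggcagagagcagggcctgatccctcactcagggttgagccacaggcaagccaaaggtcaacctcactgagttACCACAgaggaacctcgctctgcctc

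Against osteoblasts, the genes of mineral and phosphate handling were split. Of 15 listed genes at 20 CPM or more, 10 were above osteoblasts in all 4 libraries and 4 below (21.3% and 31.5% of all genes), with a median log2 ratio of 0.80. The list includes genes of the osteocyte or bone matrix list, so these counts are not separate from theirs. Higher were Ank, the exporter of the mineralization inhibitor pyrophosphate (1434, 1076, 1068 and 868 CPM, 3.99 to 7.30 times osteoblasts), and Enpp1, which makes pyrophosphate (316, 282, 226 and 341 CPM, 3.98 to 5.28 times). Galnt3, which glycosylates FGF23, and the citrate transporter Slc13a5 were 1.54 to 1.77 and 1.37 to 2.00 times osteoblasts.

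The 4 that were lower included genes that start mineralization in matrix vesicles. Alpl, the phosphatase that destroys pyrophosphate, was at 224, 212, 190 and 192 CPM against 662, 605, 676 and 633 CPM in osteoblasts of the same libraries. Smpd3, a sphingomyelinase needed for mineralization, was 0.301 to 0.366 times osteoblasts. Car3 and Ifitm5, the osteoblast gene also called Bril, were the other 2.

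Of the 16 bone matrix genes, 3 were above osteoblasts in all libraries and 7 below, with a median log2 ratio of -0.15, where 21.3% of all genes were above and 31.5% below. The 3 higher genes were Bgn (biglycan, 1.19 to 1.30 times), Spp1 and Col24a1. Col24a1, a fibrillar collagen gene, was at 3664, 4201, 4431 and 4350 CPM, 1.96 to 2.04 times osteoblasts in every library. Bglap, the osteocalcin gene, was 0.398 to 0.550 times osteoblasts, and Col5a2 0.585 to 0.662 times. Col1a1, the main bone collagen chain, was at 15180, 8042, 6708 and 7482 CPM, with 13720, 8106, 7993 and 7580 CPM in osteoblasts.

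For the type I collagen genes and Ibsp the 2 types overlapped, and the spread between libraries was larger than the difference between types. Ibsp (bone sialoprotein) was at 10980, 4452, 4010 and 4470 CPM in the type and at 10760, 4544, 5076 and 5282 CPM in osteoblasts. The WT library of replicate 1, which had the highest mitochondrial share, held most Col1a1, Ibsp, Spp1 and Sparc in both types. The part of that library in these levels was not tested.

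The phosphoglycoprotein genes of bone and tooth lie side by side on chromosome 5, from Dspp (start 104170712) through Dmp1, Ibsp and Mepe to Spp1 (end 104441050), and they did not share a pattern. Dmp1 and Mepe were higher than in osteoblasts in every library, and Ibsp was at 0.790 to 1.02 times osteoblasts. Spp1 (osteopontin) was at 4030, 1430, 1100 and 1772 CPM, 1.07 to 1.76 times osteoblasts, but below the mean of 4827 CPM in the hypertrophic class. Dspp, the dentin gene, had 0 UMIs in all 4 libraries, which allows up to 0.668 CPM.

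Of 13 transcription factor genes, 8 were below osteoblasts in all libraries and 4 above (median log2 ratio -0.20), against 31.5% and 21.3% of all genes. Runx2, the master regulator of the osteoblast lineage, was at 3333, 3183, 3471 and 3378 CPM, 0.691 to 0.746 times osteoblasts, and Sp7 (osterix) was 0.791 to 0.930 times. Zeb2, a repressor, was at 212, 249, 199 and 133 CPM against 940 to 1051 CPM in osteoblasts and was lowest of the 15 types by its mean. Tcf7, a Wnt effector, was 0.214 to 0.395 times osteoblasts. Higher were Irx5, Dlx3, and the MADS-box genes Mef2c and Mef2a, factors known to drive the bone enhancer of Sost. Mef2a was at 1922, 2056, 2262 and 2328 CPM, 2.15 to 2.32 times osteoblasts, and Mef2c was 1.36 to 1.43 times.

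**Figure D3:**
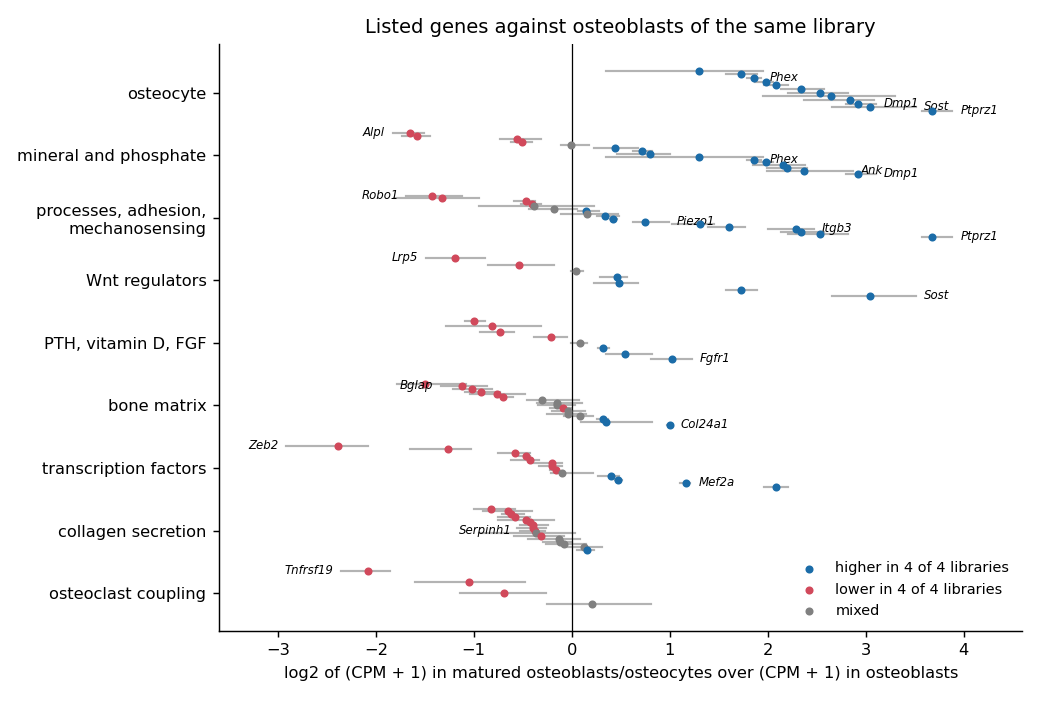
log2 ratio of CPM + 1 in matured osteoblasts/osteocytes to osteoblasts of the same library, for listed genes with at least 20 CPM in every library. Points are means and grey lines the range of the 4 libraries. Blue genes were higher and red genes lower in 4 of 4 libraries. The 12 osteocyte genes shown lie to the right of 0, and the collagen secretion list mostly to its left, with 10 of 16 genes lower and 1 higher.

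Genes of collagen folding and secretion, such as Serpinh1 (the collagen chaperone) at 640, 366, 265 and 323 CPM and 0.693 to 0.825 times osteoblasts, were lower for 10 of 16 (31.5% of all genes) and higher for 1, Lox (21.3% of all genes). Of the Wnt list, 7 of 18 genes reached 20 CPM. Sost, Dkk1, Wif1 (a secreted Wnt inhibitor) and Wnt10b (a ligand) were above osteoblasts in every library, while the receptor genes Lrp5 and Lrp4 were below, at 0.357 to 0.543 and 0.554 to 0.885 times. Dkk1 was at 260, 142, 116 and 121 CPM, 2.98 to 3.70 times osteoblasts.

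Of the 10 genes by which bone cells instruct osteoclasts, 4 reached 20 CPM, and of these 0 were above osteoblasts in every library (21.3% of all genes) and 3 below (31.5%). Csf1 (the macrophage growth factor) was at 24.0 to 42.0 CPM, against a mean of 209 CPM in the hypertrophic class. Tnfrsf11b (osteoprotegerin, the decoy receptor of RANKL) was at 41.2, 24.7, 51.6 and 34.0 CPM, 0.840 to 1.75 times osteoblasts. The summed list was at 225 to 257 CPM in the type, 481 to 534 CPM in osteoblasts and 927 to 1001 CPM in the hypertrophic class.

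Of the genes for hormone and growth factor signals, Fgfr1 (an FGF receptor) was at 995, 941, 912 and 818 CPM, 1.75 to 2.34 times osteoblasts, and Vdr (the vitamin D receptor) was 1.27 to 1.76 times. Pth1r (the parathyroid hormone receptor) was 0.766 to 0.965 times, Fgfr2 0.522 to 0.667 times and the cAMP phosphodiesterase Pde4d 0.469 to 0.540 times. Of 17 genes for processes, adhesion and mechanosensing, 10 were higher than in osteoblasts and 4 lower in every library (21.3% and 31.5% of all genes). Piezo1, a stretch-gated channel, was at 196, 207, 223 and 282 CPM (1.54 to 1.99 times), Piezo2 at 0.285 to 0.520 times, Cd44 (the hyaluronan receptor) at 4.38 to 5.96 times and the integrin gene Itgb3 at 4.01 to 5.54 times. Gja1, the gap junction gene through which osteocytes are coupled, was at 346, 260, 215 and 217 CPM, 1.05 to 1.21 times. Cd44 and Itgb3 were both higher still in osteoclasts, at means of 585 and 681 CPM.

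Markers of other cell types were low. The 10 osteoclast markers summed to 1074, 1046, 605 and 824 CPM, against 11890 to 13680 CPM in osteoclasts, and osteoblasts held 554 to 1096 CPM of them. The 8 immune markers summed to 65.4 to 103 CPM, the 7 endothelial markers to 49.0 to 77.9 CPM, the 8 neuron markers to 82.0 to 159 CPM and the 7 erythroid markers to 390 to 649 CPM. The 9 muscle markers were at 376 and 422 CPM in replicate 1 and at 71.7 and 30.7 CPM in replicate 2, and the 6 glial markers at 362 and 367 CPM against 137 and 134 CPM. No marker of these 7 lists was at 0 UMIs in all 4 libraries. Neither muscle nor glial sums separated the genotypes, while they were higher in the 2 libraries numbered 1 than in those numbered 2.

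Cartilage genes did not set the type above osteoblasts. The 16 chondrocyte genes summed to 9613 to 10320 CPM against 11400 to 12020 CPM in osteoblasts, most of it Col11a1, at 6459 to 7692 CPM. The hypertrophic class held less of this list, at 3291 to 3874 CPM. The 8 hypertrophic genes summed to 5497, 2658, 2491 and 3404 CPM against 5555 to 11460 CPM in the hypertrophic class, and Col10a1, the collagen of hypertrophic cartilage, was at 8.80 to 44.8 CPM. The 10 connective tissue genes summed to 758 to 1546 CPM, and 7 of 9 at 20 CPM were below osteoblasts in every library (31.5% of all genes). Across 10670 genes at 20 CPM or more in some type, mean log levels were most like those of osteoblasts (Spearman rho 0.958), then of the hypertrophic class (0.901) and of CP1 (0.891). These correlations are across genes of types that share libraries.

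The type was the quietest for S phase genes. The 24 genes of DNA replication summed to 208, 272, 177 and 263 CPM, the lowest mean of the 15 types, with 325 ± 26.6 CPM in CP5, the next lowest, and 333 ± 34.0 CPM in osteoblasts. The 24 genes of G2 and mitosis summed to 328 ± 53.1 CPM, second to CP5 at 320 ± 9.77 CPM, a difference within the spread. Mki67, the proliferation marker, was at 26.0, 24.7, 21.4 and 37.3 CPM, with a mean of 38.1 CPM in osteoblasts.

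Whether Tbx1 haploinsufficiency altered the number of these nuclei was asked first. Their share of annotated nuclei was 2.57%, 3.30%, 2.44% and 3.29% in the 4 libraries. The 95% Wilson intervals were 2.27% to 2.90% and 2.94% to 3.69% in replicate 1, and 2.08% to 2.86% and 2.88% to 3.76% in replicate 2, and they cover counting error only. Both Tbx1+/- libraries were above both WT libraries. The log2 difference was 0.40 (SE 0.15), with an adjusted p of 0.422 over 15 types by edgeR's quasi-likelihood test, so it did not pass the false discovery rate of 0.1 used for shares.

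The call depended on how finely the other types were divided. With the CP and CT types pooled to 1 class each, the same difference had an SE of 0.08 in place of 0.15. Its adjusted p was 0.0744 over 7 classes and it passed, as did the hypertrophic class with the same adjusted p. It passed in no other fit to all 4 libraries. Shares are relative, and osteoblasts (14.6% to 21.4% of nuclei) and the hypertrophic class also had positive log2 differences, of 0.27 (SE 0.23) and 0.36 (SE 0.15). Within the osteoblast lineage alone the log2 difference for the type was 0.06 (adjusted p 0.820).

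Per osteoblast nucleus there were 0.176, 0.154, 0.122 and 0.163 nuclei of the type. The 2 genotypes overlapped, and the mean log2 difference was 0.11 (two-sided exact permutation p = 1.0, where 2 libraries against 2 cannot go below 0.33).

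**Figure D4:**
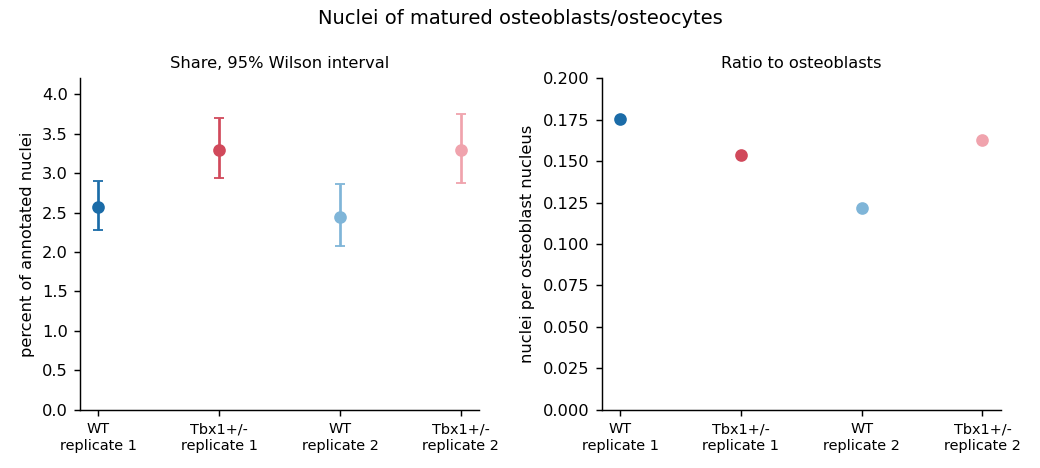
Left, share of annotated nuclei (percent) that were matured osteoblasts/osteocytes in each library, with 95% Wilson intervals. Right, nuclei of the type per osteoblast nucleus. Both Tbx1+/- libraries lie above both WT libraries on the left (3.29% and 3.30% against 2.44% and 2.57%), while the groups overlap on the right.

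Expression was then compared between genotypes on sums per library with edgeR. Tbx1 itself was at 28.6 and 22.4 CPM in replicate 1 and at 30.2 and 14.9 CPM in replicate 2, from 34, 29, 24 and 18 UMIs. Both Tbx1+/- libraries were below both WT libraries, with a log2 difference of -0.68 (SE 0.32, adjusted p 0.999). Osteoblasts held 30.4, 19.3, 30.15 and 29.2 CPM of Tbx1, and osteoclasts 11.7, 6.99, 15.5 and 10.7 CPM. Both had the same order of genotypes as the type, as did CP1, CP2 and CP3. In the hypertrophic class (45.7, 30.8, 38.7 and 40.4 CPM) and in CP4, CP5 and CP6 the genotypes overlapped. The part of free RNA in the Tbx1 levels was not tested. Fewer nuclei with the transcript and less transcript per nucleus cannot be told apart in sums.

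Of 10508 genes tested, 0 (0.0%) passed an adjusted p of 0.05 and a 1.5-fold change, by edgeR or by DESeq2. At an unadjusted p under 0.05 there were 239 genes by edgeR (2.27%), 107 higher (1.02%) and 132 lower (1.26%) in Tbx1+/-, and 21 by DESeq2. With the replicate number as a block, edgeR called 4 genes, namely Kcnb2 and Bpifa1 (lower) and Nell1 and Ptprq (higher). Bpifa1, an airway secretory gene noted after its values were seen, was at 517, 67.9, 61.6 and 1.66 CPM, with most of it in the WT library of replicate 1.

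None of the genes of the bone lists passed the test. Of the 12 osteocyte genes tested, 2 were above 0 (48.8% of all genes), and the median log2 difference was -0.21 against -0.01 over all genes. Dmp1 differed by -0.27 (SE 0.29), Phex by -0.03 (SE 0.22), Ptprz1 by -0.04 (SE 0.22) and Sost by -0.16 (SE 0.30), all with an adjusted p of 0.999. The 16 bone matrix genes had a median of -0.28, and 3 were above 0 (48.8% of all genes). This lean was not particular to bone genes. Of the connective tissue genes tested 1 of 9 was above 0, and of the chondrocyte genes 4 of 15. The osteoclast genes (4 of 5) and the cell cycle genes below were mostly above 0. Without the WT library of replicate 1 the remaining WT library was lowest for Col1a1 and Dmp1. Without the WT library of replicate 2 the log2 differences were -0.99 for Col1a1, -1.325 for Ibsp, -1.36 for Spp1 and -1.10 for Sparc. They were -1.01 for Dkk1 and -0.67 for Dmp1. In the same fit the mitochondrial gene mt-Co2 was at -0.97. The genes named for that fit were all among those called in it. Their values describe that fit and cannot show whether bone genes in general depend on the WT library.

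Fbln7, an adhesion protein of the osteocyte list, was the listed bone gene with the smallest p. It was at 78.1 and 45.5 CPM in replicate 1 and at 71.7 and 43.1 CPM in replicate 2, and both Tbx1+/- libraries were below both WT libraries. Its log2 difference was -0.79 (SE 0.22, adjusted p 0.999), and 12.2% of all genes tested had both Tbx1+/- libraries below both WT libraries. Tnfrsf11b, at an unadjusted p of 0.0407, had a log2 difference of -0.68 (SE 0.29). With the opposite sign, Tram2, of collagen secretion, had 0.60 (SE 0.25). The remaining bone lists held no gene with an unadjusted p under 0.05.

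The cell cycle genes that were tested were mostly above 0. Those tested had passed the filter on low counts, 10 of 24 S phase genes and 14 of 24 G2 and mitosis genes. The filter asks for counts in as many libraries as a genotype has, so a low gene can pass through the Tbx1+/- libraries alone. Only 2 and 3 genes of the lists reached 20 CPM in every library. The counts below therefore describe the genes tested and not the whole lists. Of 10 S phase genes tested, 9 were above 0, where 48.8% of all genes were, and 5 had both Tbx1+/- libraries above both WT libraries, where 16.7% of all genes did. Their median log2 difference was 0.37, and 2 genes, Tyms at 1.10 (SE 0.47) and Pola1 at 0.66 (SE 0.28), had an unadjusted p under 0.05, as did 1.02% of all genes in that direction, with adjusted p of 0.999. Of 14 G2 and mitosis genes, 13 were above 0 (48.8% of all genes) with a median of 0.31. Of these 14, 3 had both Tbx1+/- libraries above both WT libraries (16.7% of all genes) and 0 had them below (12.2% of all genes). A single S phase gene had both Tbx1+/- libraries below both WT libraries (12.2% of all genes). The summed S phase list was higher in both Tbx1+/- libraries than in both WT libraries in this type and in 4 of the 14 others (CP2, CT2, CT4 and osteoclasts), lower in 1 (CP4), and overlapped in 9, osteoblasts among them. The summed G2 and mitosis list overlapped between genotypes in this type, at 338 and 258 CPM in WT and 387 and 331 CPM in Tbx1+/-. In the 14 other types it was higher in 3, lower in 2 and overlapped in 9. None of these genes passed the test.

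The 3 genes with the smallest p were Kcnb2, Nell1 and Ptprq. Kcnb2 (chromosome 1, 15287254 to 15723750), a voltage-gated potassium channel gene, was at 145 and 66.4 CPM in replicate 1 and at 142 and 48.9 CPM in replicate 2. Its log2 difference was -1.35 (SE 0.20), with an adjusted p of 0.494 and, with the replicate block, of 0.0192. In osteoblasts it was at 145, 159, 182 and 127 CPM, where the genotypes overlapped.

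Nell1 (chromosome 7, 49974864 to 50866608), a secreted protein known to promote osteoblast differentiation, was at 53.8 and 147 CPM in replicate 1 and at 47.8 and 109 CPM in replicate 2. The log2 difference was 1.29 (SE 0.21), with an adjusted p of 0.579 and, with the block, of 0.0244. In osteoblasts it was at 31.7, 41.3, 33.4 and 32.5 CPM.

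Ptprq (chromosome 10, 107517049 to 107720051), a phosphatase known from the hair bundles of the inner ear, was at 62.2 and 136 CPM in replicate 1 and at 36.5 and 124 CPM in replicate 2. The log2 difference was 1.32 (SE 0.24), with an adjusted p of 0.808 and, with the block, of 0.0298. Osteoblasts held 19.3, 24.7, 20.2 and 29.3 CPM, so that both Tbx1+/- libraries were above both WT libraries there as well. Of the 14 other types, 6 had this order (CP1, CP3, CP5, CT4, matured chondrocytes and osteoblasts), 1 had the opposite order (the hypertrophic class, at 17.5 and 17.7 CPM in WT and 13.9 and 14.3 CPM in Tbx1+/-), and 7 overlapped.

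**Figure D5:**
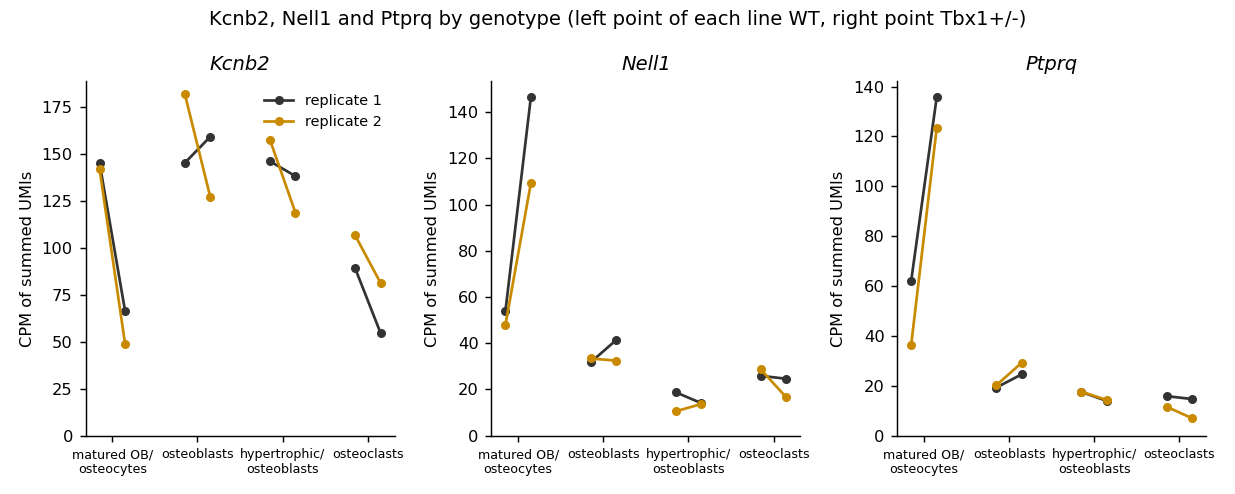
Levels (CPM) of Kcnb2, Nell1 and Ptprq in 4 cell types, with WT on the left and Tbx1+/- on the right of each line and 1 line per replicate number. In matured osteoblasts/osteocytes the Tbx1+/- end is the lower one of both lines for Kcnb2 (66.4 against 145 CPM and 48.9 against 142 CPM) and the higher one for Nell1 and Ptprq, while Kcnb2 in osteoblasts lies at 127 to 182 CPM with the genotypes overlapping.

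The difference between the type and osteoblasts in their response to genotype was tested as an interaction over 14932 genes, with the library as a block. It was called for 2 genes (0.0134%). For Kcnb2 the log2 difference of the type exceeded that of osteoblasts by -1.15 (SE 0.18, adjusted p 0.00206), and for Nell1 by 1.13 (SE 0.21, adjusted p 0.0253). Ptprq did not pass, at 0.91 (SE 0.24, adjusted p 0.983). At an unadjusted p under 0.05 there were 629 genes (4.21%). DESeq2 called 0 genes. It gave 67 genes an unadjusted p below 0.05, and Kcnb2 an adjusted p of 0.309. With the replicate number as a further term, 5 genes were called, Kcnb2, Nell1, Dmd and Bpifa1 among them. Against the hypertrophic class in place of osteoblasts 2 of 13822 genes (0.0145%) were called, Kcnb2 at -1.12 (SE 0.18) and Ptprq at 1.63 (SE 0.27), and against all other annotated nuclei 5 of 19192 (0.0261%). Both of these comparisons were chosen after seeing the data, as was the one without the 8% of nuclei with most UMIs, where Nell1 was at 0.57 (adjusted p 0.999).

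Next in the interaction were Dmd (dystrophin), at 58.8, 117, 57.9 and 77.9 CPM and 0.90 (SE 0.21, adjusted p 0.547), and Glb1l, a relative of the lysosomal galactosidase gene, at 10.1, 28.6, 8.80 and 26.5 CPM and 1.57 (SE 0.38, adjusted p 0.617). Gm28905 had 5, 2, 13 and 0 UMIs, too few for a fold. Neither Dmd nor Glb1l passed the test. In the comparison between genotypes, the next genes of the smallest p after Ptprq were Prdm6, Glb1l, Gm48321, Grid1, Plxdc2, Fbln7 and Gm47283, with log2 differences from -1.89 to 1.49 and adjusted p of 0.999. Dmd and the S phase gene Pola1 lie on chromosome X and Gm47283 on chromosome Y. The sexes in each pool are not given, so for these genes sex and genotype cannot be told apart.

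The UMIs of these genes came from few nuclei. Nell1 was found in 34 of 256 and 47 of 287 nuclei in replicate 1 and in 14 of 146 and 35 of 211 in replicate 2, and a single Tbx1+/- nucleus of replicate 1 held 41 of that library's 190 UMIs. Without the single nucleus with most Nell1 UMIs in each library the levels were 48.9, 116, 38.0 and 89.6 CPM, and without the 5 such nuclei 36.1, 83.2, 15.8 and 51.5 CPM. Kcnb2 without its 5 leading nuclei was at 76.8, 44.5, 52.2 and 30.2 CPM, and Ptprq at 23.4, 68.5, 12.0 and 67.6 CPM. In each case both Tbx1+/- libraries stayed on the same side of both WT libraries. This is a description and no test, since the genes had been picked for the same sign for each replicate number. Leaving out 5 nuclei also takes a larger part of 14 nuclei with Nell1 (WT replicate 2) than of 47 (Tbx1+/- replicate 1).

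Thinned to 2000 UMIs, Nell1 was found in 7.44%, 11.8%, 6.99% and 8.21% of nuclei and Kcnb2 in 16.1%, 12.2%, 9.09% and 10.1%. In osteoclasts these shares were 1.79% to 4.12% for Nell1 and 6.53% to 9.33% for Kcnb2, at median depths of 4963, 5323, 7105 and 6617 UMIs before thinning. For Kcnb2 the Tbx1+/- shares lay between the 2 WT shares. Of the nuclei with a Nell1 UMI, 11.8%, 29.8%, 28.6% and 31.4% also held one of Ptprq, against 9.01%, 15.4%, 7.58% and 13.1% of the others. The nuclei with Nell1 held a median of 4498.5, 5221, 5221 and 6235 UMIs against 4026, 4025.5, 5403 and 5246.5.

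The levels of the 3 genes in other types bear on how they are read. Kcnb2 was highest in CP6, at 2064 ± 246 CPM, and osteoclasts held 89.4, 54.8, 107 and 81.4 CPM, so the 2 Tbx1+/- libraries of the type, at 66.4 and 48.9 CPM, lay within or below the osteoclast range. Nell1 was highest in CP3, at 1022 ± 166 CPM, with 16.6 to 28.7 CPM in osteoclasts. Ptprq was at 93.4, 99.5, 134 and 135 CPM in CP2, where this type was higher in Tbx1+/- replicate 1 (136 CPM) and lower in the other 3 libraries, with a mean of 12.3 CPM in osteoclasts. The part of free RNA in the Kcnb2 levels was not tested.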

How the data were processed

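Single-nucleus RNA-seq was measured in 4 PTB and 4 paraflocculus/flocculus libraries, and the PTB libraries were used. The authors deposited raw UMI counts from Cell Ranger 7.0.0 (mm10, intron mode), before their SoupX correction of free RNA. Nuclei had passed the authors' quality limits if annotated. Annotated nuclei, typed by the authors by clustering, label transfer and curation, numbered 5981 to 9977 per PTB library (33515253 to 43752949 UMIs). No doublet removal is described, and the 8% of nuclei with most UMIs were left out as an alternative. The flocculus matrices were not used, and their annotation served only to count nuclei.

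UMIs were summed per type and library. Genotypes were compared with edgeR 4.0.16 (filterByExpr, TMM, quasi-likelihood, R 4.3.3), and beside it with DESeq2 1.42.0. A gene was called at an adjusted p (Benjamini-Hochberg) under 0.05 and a change over 1.5-fold. SE is the log2 difference over the square root of F. Shares used the same test on nuclei. Ratios to other types used CPM + 1. The paper describes 2 runs of the procedure on separate mice, and replicate numbers were inferred to be these runs. As a check, deviations of the libraries numbered 1 from their genotype means had a correlation of 0.236 across genes. The main fits had no replicate block, and the interaction fit had the library as a block. Other alternatives were RLE factors, no filter, nuclei with 2000 or more genes, other denominators and leaving out each library. On simulated counts, edgeR called 54% of 200 genes changed by 1 and 95.5% changed by 2 on the log2 scale between genotypes. It tested 10409 and 10465 genes, with 6 and 3 calls among unchanged genes. DESeq2 called 24.5% and 79.5%, with 0 and 1 such calls. The interaction test called 0.5% and 79% (14843 and 14836 genes), with 0 and 12 such calls. The simulation gave every gene the same fixed dispersion and changed only genes above a lowest mean count. The real spread between libraries was not simulated, so these shares are not the power of the real fits.

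Named genes were those of the lists, up to 25 leading genes, the 10 with the smallest genotype p (5 for the interaction) of the same sign for each replicate number. The members and lists were chosen with earlier results of these data known. Scripts used Python with numpy and scipy. Of 32285 features, 32235 matched GENCODE vM21 by identifier. One called gene is not reported here.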

Additional observations from a re-analysis of the deposited data

Results flagged for a closer look

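Kcnb2 and Nell1 were singled out because their response to genotype in matured osteoblasts/osteocytes differed from that in osteoblasts by the interaction test, at -1.15 for Kcnb2 and 1.13 for Nell1 on the log2 scale. In the type, both Tbx1+/- libraries were below both WT libraries for Kcnb2 and above them for Nell1. In osteoblasts the genotypes overlapped for both genes. Of the 14 other types, Kcnb2 had both Tbx1+/- libraries below both WT libraries in 4 (CT1, CT3, osteoclasts and the hypertrophic class), above them in 3 (CP1, CP3 and CT2) and overlapping in 7. Nell1 had them above in 1 (matured chondrocytes), below in 3 (CP6, CT3 and osteoclasts) and overlapping in 10.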

How the results depend on the processing

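Genes called between genotypes numbered 0 in the comparison as reported, 9 without the filter on low counts (Bpifa1, Kcnb2, Ptprq, Ttr, Nell1, Ibsp, Dok6, Tmem176a and Cntnap5c), 4 with the replicate block (Bpifa1, Kcnb2, Nell1 and Ptprq) and 1 to 24 when each library was left out, the highest without the WT library of replicate 2. With RLE factors, DESeq2, nuclei with 2000 or more genes, or without the 8% of nuclei with most UMIs, the number was 0. The cause of these changes was not tested. Where 1 library stood for a genotype, it was assumed to vary like the others.

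Genes called in the interaction numbered 2 as reported, 0 by DESeq2, 5 with the replicate block and 0 to 13 when each library was left out. Without the Tbx1+/- library of replicate 2 the log2 value was -1.10 for Kcnb2 and 1.17 for Nell1, and both calls were lost. Without the Tbx1+/- library of replicate 1 it was 1.09 for Nell1, whose call was lost as well. Of 4 alternatives chosen after seeing the data, nuclei with 2000 or more genes gave 2 genes, leaving out the 8% of nuclei with most UMIs left 1, Kcnb2, with Nell1 at 0.57 (adjusted p 0.999), all other nuclei in place of osteoblasts gave 5 genes (adding Ptprq, Anks1b and Bpifa1), and the hypertrophic class gave 2, Kcnb2 and Ptprq. Kcnb2 kept its sign in all 12 alternatives and its call in 10 of them, and Nell1 its sign in all 12 and its call in 7.

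The log2 difference in share was 0.40 with the replicate block (adjusted p 0.466) and 0.45 with TMM factors (adjusted p 0.354). By DESeq2 it was 0.39 (adjusted p 0.566), and in nuclei with 2000 or more genes 0.38 (adjusted p 0.800). It ran from 0.36 to 0.43 when each library was left out. Of the fits to all 4 libraries, only the one with the CP and CT types pooled passed, at 0.40 (adjusted p 0.0744). The log2 ratio per osteoblast ranged from -0.15 (without the WT library of replicate 2) to 0.38. Depth limits genes below about 2.31 to 3.77 CPM per library, the level that a count of 0 allows.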
